A study of Mus musculus with 12 samples.

Results

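Interferon-stimulated genes are the genes that cells switch on after an interferon has bound its receptor. The 42 mouse genes described here were picked by symbol from the 43346 rows of a read-count table of vein tissue. All 42 were found in the table, and all 42 were among the 18965 genes that passed a filter on low counts and were tested. They comprised 10 targets typical of type I interferon (3 Ifit, 5 Oas and 2 Mx genes), 9 targets that lean towards interferon gamma (4 Gbp genes, Irgm1, Irgm2, Psmb8, Psmb9 and Cxcl9) and 23 other members.

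The table held 12 RNA-seq libraries of mouse veins taken 7 days after an operation. The 6 sham libraries were made from the jugular vein, and the 6 AVF-CKD libraries from the venous limb of the AVF. AVF is read here as arteriovenous fistula, a surgical join of an artery and a vein, and CKD as chronic kidney disease, although the labels do not write these out. The sources used here do not give strain, sex, age or how the kidney was affected. The title sham does not say whether kidney disease was present. With only these groups, the fistula, any difference in kidney disease and the choice of vessel cannot be told apart. No label states that the libraries came from different mice, and the p-values below describe the spread between libraries, part of which may be technical.

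Libraries held 38.65 to 60.14 M gene counts (M, 1e6 counts). The defining markers of a vein wall were present in every library. Endothelial markers summed to 1264 to 1730 CPM (counts per 1e6 counts) in sham and 1075 to 1660 CPM in AVF-CKD, and smooth muscle markers to 1792 to 2471 CPM and 1178 to 2278 CPM. Of the 18965 genes tested, 0 (0%) passed an adjusted p of 0.05 in edgeR's quasi-likelihood test, 1772 had an unadjusted p below 0.05, limma voom called 0 and DESeq2 called 81. In bulk tissue such as this, fewer cells of a type and less RNA per cell cannot be told apart.

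Type I interferons (the alpha and beta forms) signal through Ifnar1 and Ifnar2, which activate the kinases Jak1 and Tyk2. These switch on a transcription factor complex, with Stat2 and Irf9 among its subunits, that binds the interferon-stimulated response element (ISRE) in promoters. Interferon gamma, a product of T and NK cells, signals through Ifngr1 and Ifngr2 and acts on promoters through the gamma-activated site (GAS). Many genes answer both signals. In vessel walls, endothelial cells, smooth muscle cells and macrophages can all respond, and Cxcl9 and Cxcl10 made there attract T cells.

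Both elements were looked for in the members' promoters. RefSeq windows of GRCm38.p6, from 250 bases before to 50 bases after each start, were found for 33 of the 42 genes. Dhx58, Mx1, Mx2, Oas2, Usp18, Zbp1, Rtp4, Parp14 and Iigp1 had no entry. Of the 37 windows of members, 26 had their first 30 transcribed bases in a GENCODE transcript of the gene. The ISRE core was written as GAAANNGAAA and the GAS core as TTCNNNGAA, and both strands were searched. The ISRE core was in the windows of 19 of the 33 members (57.6%), against 1079 of the 27025 genes in the RefSeq table (3.99%). For the GAS core the counts were 9 of 33 (27.3%) and 2582 of 27025 (9.55%). In 1 member, Bst2, a match of each core overlapped the other. Type I targets had the ISRE core in 4 of 7 and the GAS core in 2 of 7, and gamma-leaning targets in 6 of 9 and 4 of 9. A match describes the letters only. The 250 bases upstream of the start are shown for the 3 type I and 2 gamma-leaning targets with an entry and the smallest p between groups. They set matches of the 2 classes side by side and do not stand for all members of a class. Capitals mark the matches, reading in the direction of the gene. Ifit3 (chr19:34583279-34583528, plus strand) and Ifit1 (chr19:34640639-34640888, plus strand) each have 2 separate ISRE cores in reverse orientation. Ifit2 (chr19:34550444-34550693, plus strand) has a GAS core far upstream and no ISRE core, and its second start had neither. Gbp3 (chr3:142559794-142560043, plus strand) and Irgm1 (chr11:48871421-48871670, minus strand) each have 2 ISRE cores that share a half-site, close to the start. The second start of Gbp3 had neither core.
Ifit3: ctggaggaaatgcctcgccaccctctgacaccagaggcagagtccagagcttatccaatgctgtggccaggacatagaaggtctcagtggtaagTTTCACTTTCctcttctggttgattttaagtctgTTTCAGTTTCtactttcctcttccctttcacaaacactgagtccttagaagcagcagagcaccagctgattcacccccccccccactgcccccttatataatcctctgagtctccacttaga
Ifit1: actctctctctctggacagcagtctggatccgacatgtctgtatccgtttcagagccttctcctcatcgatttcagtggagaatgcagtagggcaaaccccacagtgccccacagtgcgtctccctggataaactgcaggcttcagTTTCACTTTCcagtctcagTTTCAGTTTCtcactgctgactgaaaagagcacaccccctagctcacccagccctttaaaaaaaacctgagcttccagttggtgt
Ifit2: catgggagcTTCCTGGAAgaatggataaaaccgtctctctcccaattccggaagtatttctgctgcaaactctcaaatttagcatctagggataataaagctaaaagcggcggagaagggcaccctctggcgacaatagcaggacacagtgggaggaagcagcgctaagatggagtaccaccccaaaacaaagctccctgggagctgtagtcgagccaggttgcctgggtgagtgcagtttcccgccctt
Gbp3: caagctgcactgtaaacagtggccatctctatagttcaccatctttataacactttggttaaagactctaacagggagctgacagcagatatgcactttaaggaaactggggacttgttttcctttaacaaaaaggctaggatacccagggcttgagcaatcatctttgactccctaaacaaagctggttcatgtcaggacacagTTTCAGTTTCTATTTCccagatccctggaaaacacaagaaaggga
Irgm1: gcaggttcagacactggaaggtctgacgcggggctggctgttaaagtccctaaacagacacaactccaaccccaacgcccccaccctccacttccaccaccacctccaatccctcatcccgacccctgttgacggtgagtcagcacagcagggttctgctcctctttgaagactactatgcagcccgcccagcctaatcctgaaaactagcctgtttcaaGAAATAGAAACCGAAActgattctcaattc

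The mean level of every member was nominally lower in AVF-CKD than in sham, and none passed the test across all genes. All 42 had a negative log2 fold change (AVF-CKD over sham), against 50.9% of all genes tested. Their median log2 fold change was -0.39, and that of all genes tested was -0.0025. An unadjusted p below 0.05 with a lower level in AVF-CKD was found for 13 of the 42, against 4.08% of all genes, and with a higher level for 0 of the 42, against 5.26% of all genes. The groups overlapped for every member. Over all genes, 0.221% had every AVF-CKD library below every sham library and 0.417% every AVF-CKD library above. The smallest adjusted p of any member was 0.390 (edgeR, Ifit3), and 21 members had a 95% interval between a 2-fold decrease and a 2-fold increase. The members move together from library to library, so the shared sign is not 42 separate observations.

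**Figure D1:**
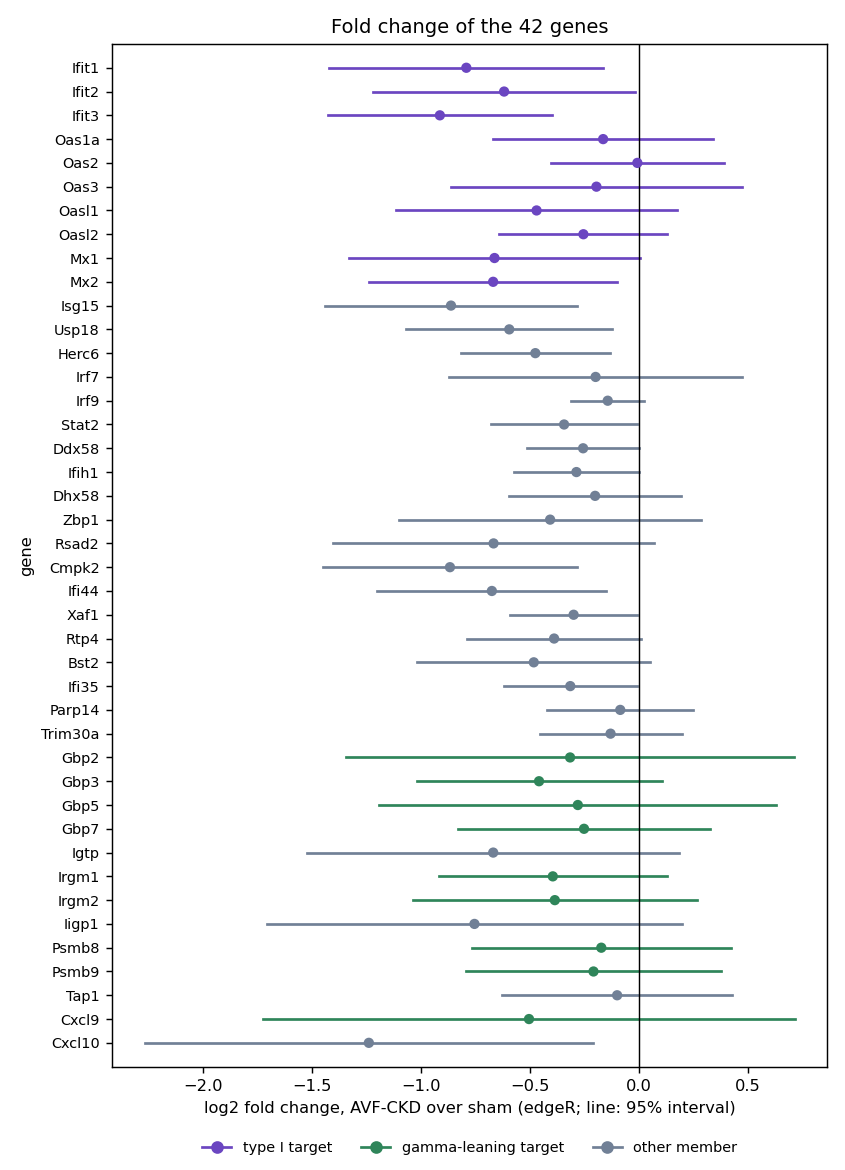
Log2 fold change (x axis, AVF-CKD over sham, edgeR) of each of the 42 genes (y axis), with the 95% interval as a line, coloured by class. All points lie left of 0, and the intervals of 13 genes stay left of it.

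Library sham 2 weighed on this picture. It had the highest CPM of all 12 libraries in 34 members, and sham 4 in the other 8. With sham 2 left out, the median log2 fold change of the 42 genes was -0.20, and 34 of the 42 were negative. Of the 42, 7 then had an unadjusted p below 0.05 with a lower level in AVF-CKD, against 3.98% of all genes. With sham 1 left out, the sham library lowest in 25 members, 20 had such a p (3.48% of all genes). With AVF-CKD 2 or AVF-CKD 4 left out, 8 members each had such a p (4.34% and 3.13% of all genes).

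**Figure D2:**
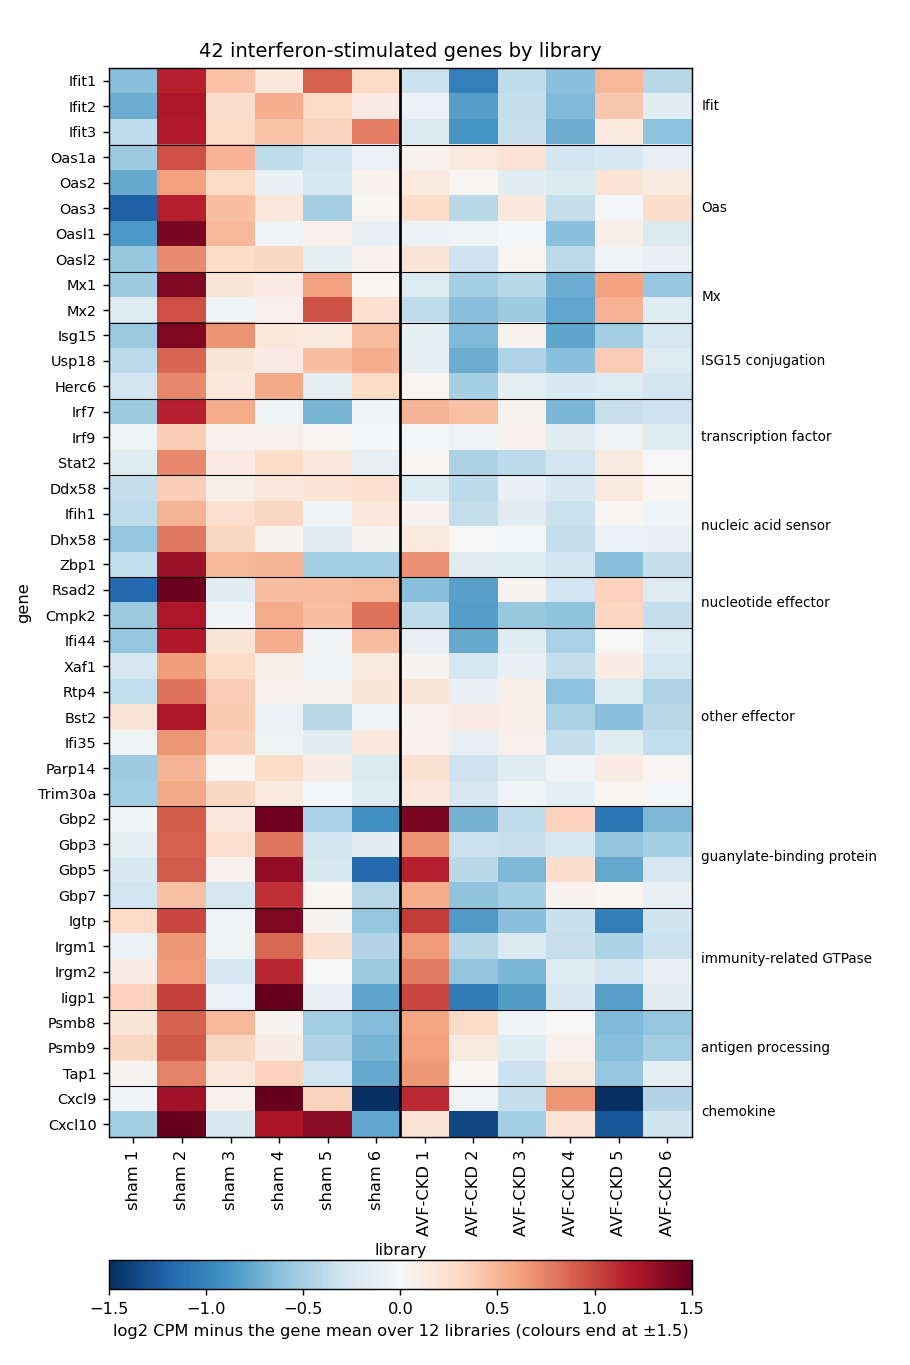
Log2 CPM of each gene (rows, grouped by role) minus its mean over the 12 libraries (columns; sham left of the black line, AVF-CKD right). Sham 2 is high in nearly all rows, whereas sham 4 and AVF-CKD 1 are high in the guanylate-binding proteins, immunity-related GTPases and Cxcl9, AVF-CKD 1 also in Zbp1 and the antigen-processing genes, and sham 4 also in Cxcl10.

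Among the type I targets, the Ifit genes had the most negative median log2 fold change. Their proteins bind viral RNA and hinder its translation, and the genes lie together on chromosome 19. All 3 had an unadjusted p below 0.05 with a lower level in AVF-CKD, against 4.08% of all genes, and the median was -0.79. Ifit3 (ENSMUSG00000074896, chr19:34583531-34588731) ranged from 57.3 through a median of 97.7 to 171 CPM in sham and from 40.6 through 54.1 to 82.7 CPM in AVF-CKD. Of the 6 sham libraries, 5 lay above the highest AVF-CKD library, and sham 1 lay inside the AVF-CKD range. Its log2 fold change was -0.91 ± 0.24 (SE; 95% interval -1.43 to -0.40; unadjusted p = 0.00206, adjusted p = 0.390, edgeR). DESeq2 put its adjusted p at 0.0476, which made Ifit3 the only member called by DESeq2, which called 30 of 19918 genes (0.151%) lower in AVF-CKD. Without sham 2 the edgeR log2 fold change of Ifit3 was -0.73.

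Ifit1, the family member that binds incompletely capped RNA, ranged from 33.1 through 66.0 to 115 CPM in sham and from 25.2 through 38.9 to 72.6 CPM in AVF-CKD. Its highest AVF-CKD library, AVF-CKD 5, exceeded 4 of the 6 sham libraries, and the log2 fold change was -0.79 ± 0.29 (SE; adjusted p = 0.479, edgeR). Ifit2, described after its values were seen, ranged from 29.0 to 112 CPM in sham and 27.5 to 64.1 CPM in AVF-CKD, with a log2 fold change of -0.62 ± 0.28 (SE; adjusted p = 0.523, edgeR). The 3 genes shared their extremes: sham 2 was highest and sham 1 lowest among sham, and AVF-CKD 5 highest and AVF-CKD 2 lowest among AVF-CKD.

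The Oas genes, whose products sense double-stranded RNA and activate RNase L, had smaller fold changes. Their median log2 fold change was -0.19, and 0 of the 5 had an unadjusted p below 0.05 (lower in AVF-CKD, 4.08% of all genes). Oasl1, a family member that restrains Irf7 translation, ranged from 7.87 through 14.3 to 38.1 CPM in sham and from 9.25 through 13.6 to 15.3 CPM in AVF-CKD. The medians were close, and the log2 fold change of -0.47 ± 0.30 (SE; adjusted p = 0.659, edgeR) leaned on sham 2, without which it was -0.10. Oasl2, the Oas member with the highest level per length (26.7 CPM per kilobase over the 12 libraries), ranged from 67.8 through 114 to 165 CPM in sham and from 76.8 through 95.8 to 116 CPM in AVF-CKD. This gave a log2 fold change of -0.25 ± 0.18 (SE; adjusted p = 0.698, edgeR).

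Oas2 had the smallest difference of all 42 members. The sham mean was 62.4 CPM ± 19.9 (SD, n = 6), and the AVF-CKD mean 62.1 CPM ± 7.27 (SD, n = 6). The log2 fold change was -0.01 ± 0.18 (SE; 95% interval -0.40 to 0.39; adjusted p = 0.998, edgeR), and its sign turned positive (6.8e-05) when library totals were used without scaling factors. The sham libraries spread from 35.8 to 93.3 CPM on either side of all 6 AVF-CKD libraries (52.7 to 70.0 CPM). Oas1a and Oas3 had the same layout, with sham 1 as the lowest and sham 2 as the highest of all 12 libraries, and their log2 fold changes were 0.081 and 0.11 without sham 2. Oas1a has near copies, among them Oas1g at 22.3 CPM ± 10.4 (SD, n = 6) in sham, so its reads may be split between genes and its level is uncertain.

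Mx1 and Mx2, dynamin-like GTPases that block viral nucleocapsids, followed the Ifit genes. Mx1 ranged from 18.8 through 30.3 to 72.1 CPM in sham and from 16.3 through 19.9 to 41.5 CPM in AVF-CKD, with a log2 fold change of -0.66 ± 0.31 (SE; adjusted p = 0.535, edgeR). In Mx2 the ranges were 8.12 through 10.4 to 18.2 CPM and 5.45 through 6.77 to 13.4 CPM, with a log2 fold change of -0.67 ± 0.26 (SE; adjusted p = 0.492, edgeR). In Mx2, 4 of the 6 AVF-CKD libraries lay below the lowest sham library, while AVF-CKD 5 lay above 4 sham libraries.

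Isg15 encodes a ubiquitin-like protein that is attached to other proteins by Herc6 and removed by Usp18. All 3 genes of this system had an unadjusted p below 0.05 (lower in AVF-CKD, 4.08% of all genes). Their median log2 fold change was -0.59. Isg15 (chr4:156199424-156200818) ranged from 36.3 through 66.9 to 140 CPM in sham and from 30.7 through 41.1 to 55.2 CPM in AVF-CKD. As for Ifit3, 5 of 6 sham libraries lay above the highest AVF-CKD library and sham 1 lay within the AVF-CKD range. The log2 fold change was -0.86 ± 0.27 (SE; adjusted p = 0.407, edgeR), and -0.59 without sham 2. Herc6, the main Isg15 ligase of the mouse, ranged from 24.5 through 35.1 to 49.3 CPM in sham and from 21.2 through 25.9 to 30.5 CPM in AVF-CKD. For Herc6 the log2 fold change was -0.47 ± 0.16 (SE; adjusted p = 0.432, edgeR). In the GENCODE model of Herc6, which is longer than the counted one, 13.7% of the exonic bases overlap another gene model. Usp18, which also dampens the type I receptor, had a sham mean of 33.7 CPM ± 9.76 (SD, n = 6) and an AVF-CKD mean of 22.4 CPM ± 6.80 (SD, n = 6), and was described after its values were seen. It had a log2 fold change of -0.59 ± 0.22 (SE; adjusted p = 0.481, edgeR).

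The transcription factors that carry the type I signal had smaller fold changes than the Ifit, Mx and Isg15-system genes. Stat2 ranged from 87.9 through 110 to 165 CPM in sham and from 71.7 through 91.4 to 109 CPM in AVF-CKD (log2 fold change -0.34 ± 0.15, SE; adjusted p = 0.524, edgeR). Irf9, the DNA-binding partner of Stat2, had the smallest spread of the members, from 79.0 through 85.0 to 107 CPM in sham and from 73.2 through 79.0 to 86.7 CPM in AVF-CKD. Its log2 fold change was -0.14 ± 0.08 (SE; adjusted p = 0.593, edgeR), an interval of -0.31 to 0.03. Irf7, which amplifies interferon alpha production, varied more, from 71.5 through 110 to 259 CPM in sham and from 72.1 through 106 to 164 CPM in AVF-CKD. Its log2 fold change of -0.20 ± 0.31 (SE; adjusted p = 0.878, edgeR) became 0.10 without sham 2.

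Of the nucleic acid sensors, 0 of 4 had an unadjusted p below 0.05 (lower in AVF-CKD, 4.08% of all genes). Ddx58, which encodes the RNA sensor RIG-I, ranged from 59.7 through 87.2 to 99.0 CPM in sham and from 58.3 through 68.8 to 84.5 CPM in AVF-CKD (log2 fold change -0.25 ± 0.12, SE; adjusted p = 0.534, edgeR). Ifih1, a sensor of long double-stranded RNA, ranged from 36.5 through 55.1 to 68.1 CPM and from 37.2 through 44.6 to 49.3 CPM (log2 fold change -0.29 ± 0.13, SE; adjusted p = 0.534, edgeR). In both genes 4 of 6 sham libraries lay above the highest AVF-CKD library. Zbp1, a sensor of Z-form nucleic acid that can start necroptosis, did not share that layout: it ranged from 43.0 through 66.8 to 150 CPM in sham and from 39.8 through 52.1 to 98.8 CPM in AVF-CKD (log2 fold change -0.41 ± 0.32, SE; adjusted p = 0.731, edgeR). Dhx58, a regulator of the other RNA sensors, ranged from 21.3 to 55.3 CPM and from 24.8 to 34.9 CPM.

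Rsad2 and Cmpk2 lie side by side on chromosome 12 and act on nucleotides, Rsad2 (viperin) by making a chain-terminating nucleotide and Cmpk2 as a mitochondrial nucleotide kinase. Cmpk2 (chr12:26469204-26479835) ranged from 15.2 through 31.6 to 51.8 CPM in sham and from 12.6 through 16.1 to 27.8 CPM in AVF-CKD. Its libraries sham 2, sham 4, sham 5 and sham 6 lay above all 6 AVF-CKD libraries, and the log2 fold change was -0.87 ± 0.27 (SE; adjusted p = 0.407, edgeR). Rsad2 ranged from 14.2 through 43.8 to 88.7 CPM and from 18.2 through 27.0 to 40.7 CPM. Its sham libraries spread 6.23-fold, and the log2 fold change of -0.67 ± 0.34 (SE; adjusted p = 0.569, edgeR) was -0.34 without sham 2.

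**Figure D3:**
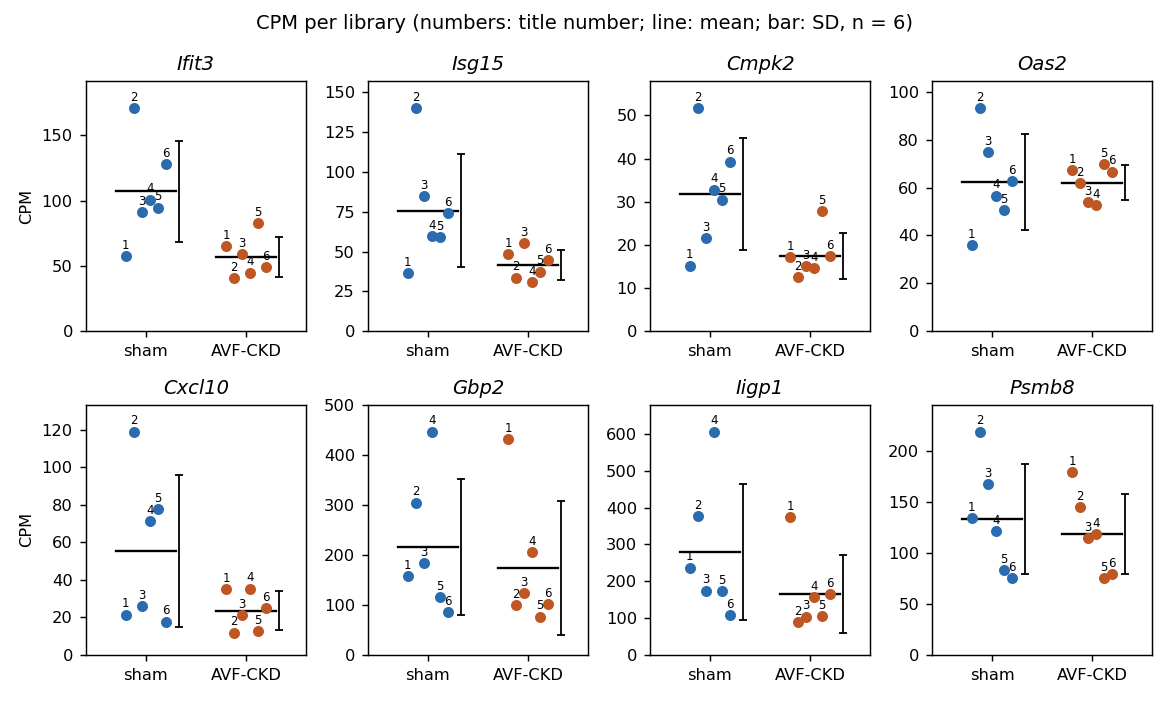
CPM (y axis, from 0) of 8 members in the 6 sham (blue) and 6 AVF-CKD (orange) libraries, numbered by title, with the mean as a line and the SD as a bar (n = 6 each). In Ifit3, Isg15 and Cmpk2 most sham libraries lie above most AVF-CKD libraries, Oas2 has near-equal means, and in Gbp2 and Iigp1 the highest AVF-CKD library (AVF-CKD 1, 432 and 373 CPM) stands among the highest sham libraries.

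Of the 7 other effectors 3 had an unadjusted p below 0.05 with a lower level in AVF-CKD, against 4.08% of all genes. Ifi44, an interferon-induced antiviral gene, ranged from 12.5 through 23.4 to 42.9 CPM in sham and from 11.0 through 16.3 to 18.5 CPM in AVF-CKD (log2 fold change -0.67 ± 0.24, SE; adjusted p = 0.469, edgeR). Xaf1, which antagonises the apoptosis inhibitor XIAP, ranged from 36.6 through 47.1 to 67.1 CPM and from 33.8 through 38.4 to 46.8 CPM (log2 fold change -0.30 ± 0.13, SE; adjusted p = 0.522, edgeR). Ifi35 was the third of them, from 44.1 to 77.8 CPM and from 37.9 to 51.9 CPM, and 16.8% of its exonic bases overlap another model. Bst2 (tetherin, which holds budding virus at the cell surface) was the most abundant member per length, at 224 CPM per kilobase. It ranged from 120 through 169 to 372 CPM in sham and from 104 through 144 to 175 CPM in AVF-CKD, with sham 2 far above the rest, and had a log2 fold change of -0.48 ± 0.25 (SE; adjusted p = 0.572, edgeR). Rtp4, with 13.9% of its exonic bases overlapped by another model, ranged from 43.3 to 98.3 CPM in sham and 36.7 to 63.3 CPM in AVF-CKD. Parp14, an ADP-ribosyltransferase, and Trim30a had AVF-CKD ranges (97.9 to 143 and 72.3 to 94.8 CPM) that lay wholly inside their sham ranges (83.6 to 174 and 59.2 to 126 CPM). Trim30a has a near copy, Trim30d, at 38.6 CPM ± 10.2 (SD, n = 6) in sham, and its level is uncertain for that reason.

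The guanylate-binding proteins attack the vacuoles of intracellular microbes and are classical targets of interferon gamma. None of the 4 had an unadjusted p below 0.05 (lower in AVF-CKD, 4.08% of all genes), and their median log2 fold change was -0.30. Gbp2 (chr3:142620602-142638008), the most abundant of them per length at 77.3 CPM per kilobase, ranged from 85.9 through 170 to 447 CPM in sham and from 76.6 through 113 to 432 CPM in AVF-CKD. Sham 4 and AVF-CKD 1 were nearly equal at the top, and sham 6 and AVF-CKD 5 lay at the bottom of their groups. The log2 fold change was -0.31 ± 0.48 (SE; 95% interval -1.34 to 0.71; adjusted p = 0.873, edgeR). Leaving out sham 4 turned its sign (0.03), and leaving out AVF-CKD 1 took it to -0.83.

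Gbp3 ranged from 74.1 through 94.3 to 168 CPM in sham and from 60.1 through 72.2 to 144 CPM in AVF-CKD. Here 4 of the 6 AVF-CKD libraries lay below the lowest sham library, and the log2 fold change was -0.46 ± 0.26 (SE; adjusted p = 0.610, edgeR), the smallest adjusted p among the gamma-leaning targets. Gbp7 ranged from 54.1 through 67.6 to 155 CPM and from 47.8 through 70.7 to 107 CPM (log2 fold change -0.25 ± 0.27, SE; adjusted p = 0.813, edgeR). Its median was higher in AVF-CKD, against the sign of the fold change. Its level is uncertain, because Gbp4 (71.3 CPM ± 56.2, SD, n = 6, in sham) and Gbp6 are close relatives and 11.3% of its exonic bases overlap another model. Gbp6, not a member, had a sham mean of 79.5 CPM and an AVF-CKD mean of 43.4 CPM. Its log2 fold change was -0.87 ± 0.40 (SE; unadjusted p = 0.0475, adjusted p = 0.527, edgeR), and that of Gbp4 was -0.46 ± 0.50 (SE; adjusted p = 0.814, edgeR). Gbp5, which also promotes inflammasome assembly, ranged from 17.5 to 98.0 CPM and from 23.0 to 87.7 CPM. Its counted model (chr3:142496934-142619179, 5844 bases) spans the loci of Gbp7 and Gbp3. The GENCODE model used to look for overlaps has only 2823 exonic bases, so the level of Gbp5 is uncertain too.

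Immunity-related GTPases guard host membranes (Irgm1, Irgm2, Igtp) or disrupt microbial vacuoles (Iigp1). Their median log2 fold change was -0.53, with 0 of 4 at an unadjusted p below 0.05 (lower in AVF-CKD, 4.08% of all genes). Iigp1 was the most abundant per length, at 71.3 CPM per kilobase, and ranged from 107 through 206 to 606 CPM in sham and from 89.7 through 131 to 373 CPM in AVF-CKD. The log2 fold change of Iigp1 was -0.75 ± 0.44 (SE; adjusted p = 0.6252, edgeR), and -0.37 without sham 4. Igtp ranged from 56.2 through 94.6 to 222 CPM and from 40.9 through 60.2 to 173 CPM (log2 fold change -0.67 ± 0.40, SE; adjusted p = 0.632, edgeR). Each of the 4 had its highest value in sham 4 and its highest AVF-CKD value in AVF-CKD 1. Irgm1 ranged from 86.2 to 213 CPM in sham and 84.4 to 182 CPM in AVF-CKD, and Irgm2 from 78.3 to 250 CPM and 71.0 to 195 CPM. Igtp and Irgm2 overlap on chromosome 11, for 8.01% and 4.39% of their exonic bases.

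The antigen-processing members had the smallest median log2 fold change of the roles, -0.17. Psmb8, an immunoproteasome subunit and the most abundant of the 3 per length (46.1 CPM per kilobase), ranged from 75.8 through 128 to 219 CPM in sham and from 75.2 through 116 to 179 CPM in AVF-CKD. The log2 fold change of Psmb8 was -0.17 ± 0.28 (SE; adjusted p = 0.878, edgeR), and 14.7% of its exonic bases overlap another model. Psmb9, another immunoproteasome subunit, ranged from 34.9 through 65.5 to 108 CPM and from 36.3 through 54.4 to 86.7 CPM (log2 fold change -0.21 ± 0.27, SE; adjusted p = 0.848, edgeR). In both, the AVF-CKD values covered nearly the same span as the sham values, and both signs turned positive without sham 2 (0.03 for Psmb8). Tap1, the peptide transporter that neighbours Psmb9 on chromosome 17, ranged from 62.5 to 179 CPM and from 71.4 to 168 CPM. A list of 10 further genes of class I presentation, among them B2m and H2-K1, had 10 negative log2 fold changes with a median of -0.11. Of these 10 genes, 0 had an unadjusted p below 0.05 (lower in AVF-CKD, 4.08% of all genes). B2m, the most abundant of that list per length, had a log2 fold change of -0.26 ± 0.23 (SE; adjusted p = 0.758, edgeR).

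The chemokines Cxcl9 and Cxcl10, ligands of the receptor Cxcr3 on activated T cells, had the widest sham ranges of the 42 members as a ratio of the highest to the lowest library, 14.0-fold for Cxcl9 and 6.72-fold for Cxcl10. Cxcl10 (chr5:92346638-92348889) had the most negative log2 fold change of the 42, -1.24 ± 0.48 (SE; 95% interval -2.27 to -0.21; unadjusted p = 0.0219, adjusted p = 0.487, edgeR). It ranged from 17.7 through 48.6 to 119 CPM in sham and from 11.8 through 23.1 to 35.4 CPM in AVF-CKD. The sham libraries separated: sham 2, sham 4 and sham 5 held 71.1 to 119 CPM, above all AVF-CKD libraries, and sham 1, sham 3 and sham 6 held 17.7 to 26.1 CPM, within the AVF-CKD range. Without sham 2 the log2 fold change was -0.86. Cxcl9 ranged from 15.9 through 79.2 to 222 CPM in sham and from 15.7 through 59.7 to 148 CPM in AVF-CKD, the latter a 9.45-fold spread. Its log2 fold change was -0.50 ± 0.56 (SE; 95% interval -1.72 to 0.72; adjusted p = 0.820, edgeR).

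Set beside each other, type I targets had a median log2 fold change of -0.54 and gamma-leaning targets one of -0.31. In these classes 4 of 10 and 0 of 9 had an unadjusted p below 0.05 with a lower level in AVF-CKD, against 4.08% of all genes. The type I targets were not uniform: their median was -0.79 for the Ifit, -0.66 for the Mx and -0.19 for the Oas genes. The 4 with such a p were the 3 Ifit genes and Mx2, with 0 of the 5 Oas genes. Igtp and Iigp1, which peaked in sham 4 and AVF-CKD 1 like most gamma-leaning targets, were counted outside both classes, at -0.67 and -0.75. In all, 23 members were outside both classes, from -1.24 to -0.08, among them Isg15 at -0.86 and Irf7 at -0.20. The difference of the medians, -0.23, depends on which members are placed in a class. The difference was not tested, because genes of a class share their libraries and are not replicates. It did not keep its sign: it was 0.08 without AVF-CKD 1 and 0.24 among title numbers 4 to 6 alone. Without AVF-CKD 1 the gamma-leaning median was -0.65. There 3 of 9 had an unadjusted p below 0.05 with a lower level in AVF-CKD, against 3.39% of all genes. The gamma-leaning median was -0.14 without sham 4 and -0.47 without sham 6, and the type I median was -0.23 without sham 2. With sham 2 and sham 4 left out together, a choice made after seeing the data, the median of all members was -0.09. That of the gamma-leaning targets was 0.06. Of all members, 3 then had an unadjusted p below 0.05 with a lower level in AVF-CKD, against 3.73% of all genes. The median standard error was 0.27 for type I targets and 0.28 for gamma-leaning targets, but the highest was 0.31 and 0.56, and the SD of the class mean between libraries of a group was 0.43 and 0.60 on the log2 scale.

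What set the classes apart was which libraries were high. In each library the log2 CPM of every gene was taken relative to its mean over the 12 libraries and averaged over a class. Type I targets stood at 1.08 in sham 2 and -0.64 in sham 1, with the other 4 sham libraries between 0.13 and 0.31 and the AVF-CKD libraries between -0.54 and 0.22. Gamma-leaning targets stood at 0.95 in sham 4, 0.84 in sham 2 and 0.84 in AVF-CKD 1, and at -0.79 in sham 6 and -0.73 in AVF-CKD 5. Sham 2 stood high in both classes, and no other library reached its level in the type I targets. AVF-CKD 5 was the highest AVF-CKD library in 7 of 10 type I targets and the lowest in 7 of 9 gamma-leaning targets, while AVF-CKD 1 was the highest AVF-CKD library in all 9 gamma-leaning targets and in 2 type I targets.

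**Figure D4:**
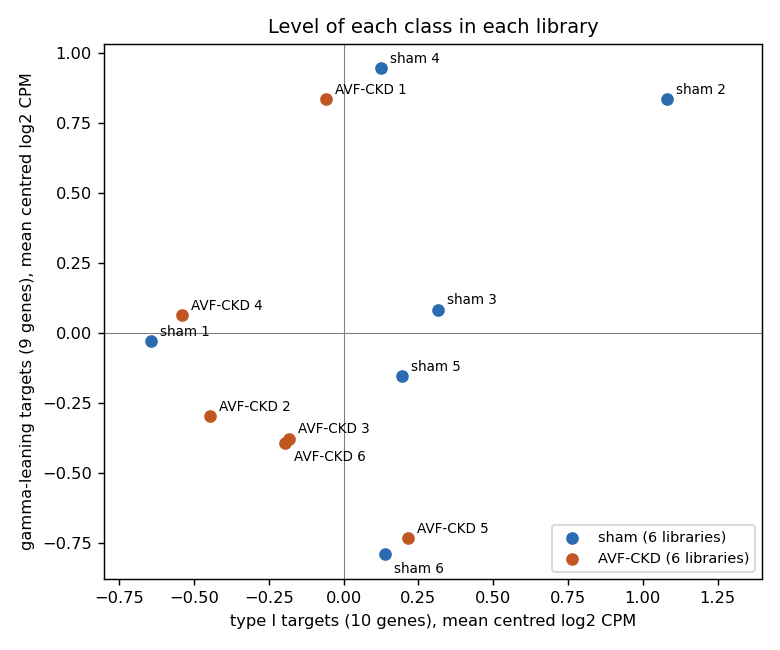
Mean centred log2 CPM of the 10 type I targets (x axis) and the 9 gamma-leaning targets (y axis) in each library. Sham 2 is high on both axes, sham 4 and AVF-CKD 1 are high on the y axis alone, and sham 6 and AVF-CKD 5 are low on the y axis at 0.14 and 0.22 on the x axis.

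Genes of a class followed each other across the libraries more closely than genes of different classes. Pearson correlations were taken over the 12 libraries, which share their depth and tissue makeup. The median was 0.76 over the 45 pairs of type I targets (0.21 to 0.93). It was 0.79 over the 36 pairs of gamma-leaning targets (0.27 to 0.98) and 0.29 over the 90 pairs between the classes (-0.15 to 0.74). The ranges overlapped. For 15 pairs of genes chosen after their values were seen, p came from 100000 permutations and was adjusted over the 15. Ifit3 correlated with Isg15 (r = 0.87, rho = 0.89, permutation p = 0.00037 and 0.00023, adjusted 0.00185 and 0.00115, n = 12), and r was 0.75 without the 2 libraries farthest from the median. Within sham the r was 0.91 and within AVF-CKD 0.41. Ifit3 and Gbp2, in contrast, gave r = 0.22 and rho = 0.20 (permutation p = 0.483 and 0.544, adjusted 0.649 and 0.583, n = 12; r = -0.09 without the 2 farthest libraries).

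The interferon genes themselves were near or at the limit of detection, apart from Ifng. Of 22 ligand gene models, 14 had 0 counts in all 12 libraries. The interferon alpha models and Ifnab together had 19 counts over all libraries, Ifnb1 had 8 and Ifnz 64. A count of 0 allows up to 3 counts, or 0.0499 to 0.0776 CPM by library, which covers counting error only. Ifng was the only ligand that passed the filter, with 4 to 73 counts in sham libraries and 2 to 49 in AVF-CKD libraries, or 0.0831 through 1.02 to 1.69 CPM and 0.0454 through 0.472 to 0.962 CPM. Sham 4 held the most and AVF-CKD 5 the least. The log2 fold change of Ifng was -0.93 ± 0.65 (SE; adjusted p = 0.698, edgeR), and the spread between libraries within each group was wide enough that the test did not separate the groups.

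Libraries with more Ifng also had more Cxcl9. These genes were picked after their values were seen, so the p-values here and for the pairs above describe the pairs and are no independent support. Across the 12 libraries r was 0.93 and rho 0.94 (permutation p = 3e-05 and 2e-05, adjusted 0.00045 and 0.0003 over 15 pairs), r was 0.82 without sham 6 and AVF-CKD 5, and it was 0.94 within sham and 0.94 within AVF-CKD. Gbp2 and Ifng gave r = 0.76 and rho = 0.78 (permutation p = 0.00486 and 0.00402, adjusted 0.0182 and 0.0151, n = 12; r = 0.72 without the 2 farthest libraries; 0.76 within sham and 0.73 within AVF-CKD). Psmb8 and Ifng gave r = 0.66 and rho = 0.66 (permutation p = 0.0205 and 0.0223, adjusted 0.0439 and 0.0477, n = 12), with 0.51 without the 2 farthest libraries, 0.53 within sham and 0.83 within AVF-CKD. Ifit3 and Ifng showed no such relation (r = 0.11, rho = 0.36, permutation p = 0.735 and 0.257, adjusted 0.804 and 0.429, n = 12; r = -0.02 without the 2 farthest libraries; 0.10 within sham and -0.64 within AVF-CKD).

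**Figure D5:**
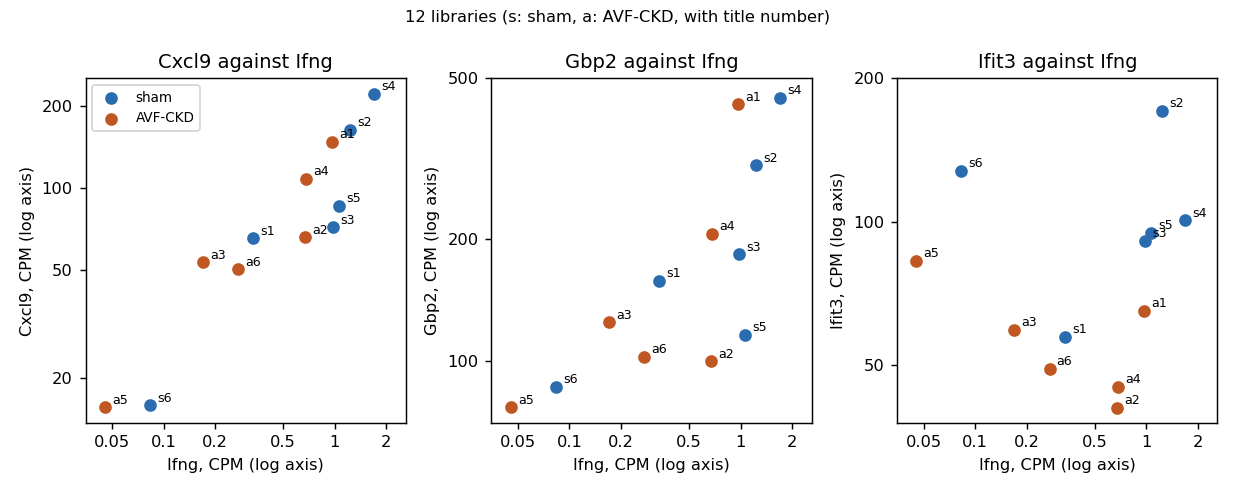
CPM of Cxcl9, Gbp2 and Ifit3 (y axes, log scale) against CPM of Ifng (x axes, log scale) in 12 libraries (s, sham, blue; a, AVF-CKD, orange; with the title number). Cxcl9 and Gbp2 are high where Ifng is high in either group (r = 0.93 and 0.76), and Ifit3 is not (r = 0.11).

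Most of the genes upstream of the members that are described here did not share their negative sign. All 6 interferon receptor genes had positive log2 fold changes, with a median of 0.15. Ifnar1, a chain of the type I receptor, ranged from 104 through 121 to 132 CPM in sham and from 125 through 136 to 157 CPM in AVF-CKD (log2 fold change 0.21 ± 0.07, SE; unadjusted p = 0.0119, adjusted p = 0.443, edgeR). Ifngr1, a chain of the gamma receptor and the most abundant receptor per length, had a log2 fold change of 0.10 ± 0.10 (SE; adjusted p = 0.785, edgeR). Tyk2, a kinase of the type I receptor, had an unadjusted p of 0.0393 (log2 fold change 0.16 ± 0.07, SE; adjusted p = 0.510, edgeR). Jak1, a kinase shared by both kinds of receptor, had a log2 fold change of 0.07 ± 0.07 (SE; adjusted p = 0.808, edgeR).

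Among 13 receptors and adaptors that lead to interferon production, 10 had positive log2 fold changes (over all genes tested, 50.9% were negative) and 4 had an unadjusted p below 0.05 with a higher level in AVF-CKD (5.26% of all genes tested). Tlr8, an endosomal RNA receptor, was the gene of this list whose groups did not overlap (0.417% of all genes tested lay higher without overlap), with 19.0 through 31.6 to 32.3 CPM in sham and 33.3 through 37.5 to 39.1 CPM in AVF-CKD (log2 fold change 0.38 ± 0.13, SE; adjusted p = 0.435, edgeR). Ikbke, a kinase that phosphorylates Irf3 and Irf7, had a log2 fold change of 0.55 ± 0.23 (SE; adjusted p = 0.502, edgeR), the related kinase Tbk1 0.16 ± 0.06 (adjusted p = 0.483) and the adaptor Traf3 0.26 ± 0.09 (adjusted p = 0.424). Tmem173, which encodes STING and was the most abundant of this list per length, stood at -0.04 ± 0.13 (SE; adjusted p = 0.948, edgeR). Of 7 further interferon regulatory factors 5 were positive, and Irf5, the most abundant per length, had 0.21 ± 0.17 (SE; adjusted p = 0.742, edgeR). Of 9 inhibitors 6 were positive and 0 had an unadjusted p below 0.05, with Ptpn6, a phosphatase of leukocytes, as the most abundant per length (0.29 ± 0.22, SE; adjusted p = 0.728, edgeR).

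Markers of cells that make or answer interferons, and of other cells of the tissue, were summed per library beside the members. For comparison with the counts below, 50.9% of all genes tested had a negative log2 fold change. With an unadjusted p below 0.05 (edgeR), 4.08% of all genes were lower and 5.26% higher in AVF-CKD. Macrophage and monocyte markers (12 genes, 9 with positive log2 fold changes) summed to 6507 to 13342 CPM in sham and 7298 to 13067 CPM in AVF-CKD, highest in sham 2 and lowest in sham 6. T and NK cell markers (13 genes, 10 negative, 0 with an unadjusted p below 0.05) summed to 28.5 to 107 CPM and 49.0 to 93.7 CPM, again with sham 2 highest and sham 6 lowest. Sham 4, highest in most gamma-leaning targets, had 56.3 CPM of T and NK cell markers, below the sham median of 63.2 CPM. Plasmacytoid dendritic cell markers, of cells that are strong producers of type I interferon, summed to 4.70 to 25.5 CPM and 7.62 to 14.8 CPM, with 5 of 6 negative log2 fold changes, a median of -0.41 and 0 with an unadjusted p below 0.05. Endothelial markers had 8 of 8 negative log2 fold changes with a median of -0.18, and vascular smooth muscle markers 4 of 6 with a median of -0.27; each list had 2 markers lower at an unadjusted p below 0.05. Adipocyte markers had 6 of 6 negative, 3 of them with an unadjusted p below 0.05. They summed to 190 to 993 CPM in sham, highest in sham 6, and 136 to 332 CPM in AVF-CKD. Skeletal muscle markers had 6 of 6 negative, 0 with such a p. They summed to 369 to 10079 CPM in sham, highest in sham 4, and 602 to 9410 CPM in AVF-CKD. Neutrophil markers (5 of 6 positive, 1 with such a p) summed to 120 to 313 CPM and 124 to 413 CPM. Negative signs were found for 5 of 6 dendritic cell, 6 of 7 B and plasma cell and 3 of 6 fibroblast markers. None of these defining markers was at 0 in all libraries. The part of these cells in the members' differences was not tested.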

How the data were processed

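Vein RNA of 12 mouse samples (6 sham, 6 AVF-CKD, grouped by title) was sequenced on an Illumina HiSeq from TruSeq v2 libraries, per the labels' protocols. The kit does not mark strand. The deposited table gives whole-number read counts per gene, used as deposited, and RPKM values that the authors computed per gene, which were not used for tests. Build GRCm38, TopHat2 2.1.0, featureCounts and edgeR are named, without roles, in the submitters' processing notes. The annotation release, how strand was handled and any filtering of reads: not given in the sources used here. Total counts were 38.65 to 60.14 M (1e6) per library, and the biological coefficient of variation was 24.2%. There were 0 columns of other series.

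Counts were filtered (filterByExpr by group), scaled by TMM and tested with edgeR 4.0.16's quasi-likelihood F-test in R 4.3.3, group as the only term, with Benjamini-Hochberg adjustment over all 18965 genes and a threshold of 0.05. Library sizes scaled by TMM gave CPM, and a prior count of 2 was used for log2 CPM. SE was the size of the fold change over the root of F. The fit was tested on simulated data. Exonic overlap used GENCODE models of GRCm38, and coordinates of genes are the deposited table's. Some GENCODE models differ in length from the counted ones (Herc6, 9292 against 5279 bases). The overlap percentages are those of the GENCODE models. Alternatives were RLE or no scaling, no filter, mean CPM of at least 1, DESeq2 1.42.0, limma 3.58.1 voom, the title number as a block, title numbers 1 to 3 or 4 to 6 alone, and leaving out each library. Leaving out sham 1 with sham 2, or sham 2 with sham 4, was chosen after seeing the data.

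The members and gene lists were chosen with earlier results of these data known. Full values are given for the 2 members of each role with the smallest p, the most abundant member of each role per length, any member without overlap, and, of the pathway lists, genes with p below 0.05 and the most abundant gene per length. Oas2, Ifit2, Usp18, Parp14, Tap1, Irgm1 and Irgm2 were added after their values were seen. A gene of the pathway lists is not reported here.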

Additional observations from a re-analysis of the deposited data

Results flagged for a closer look

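In 84 groups of 6 values (42 genes, 2 groups), 5 held a library that stood apart from the others by Dixon's test for 6 values. Chance alone gives such a value in about 1 in 20 groups, and 84 groups of correlated genes are not independent. Irf9 stood apart in sham 2, at 107 CPM. In the other 4 genes AVF-CKD 1 stood above the other AVF-CKD libraries: Zbp1 at 98.8 CPM, Gbp3 at 144 CPM, Igtp at 173 CPM and Irgm1 at 182 CPM. AVF-CKD 1 also held the most Ifng of the AVF-CKD libraries, 0.962 CPM, and the most macrophage and monocyte markers among them, 13067 CPM. Their part in these values was not tested.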

How the results depend on the processing

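Direction and lack of a call were kept by 923 of 966 values (42 genes, 23 alternatives), and 42 had the other sign. DESeq2 called 81 genes in all, Ifit3 among them (log2 fold change -0.91, adjusted p = 0.0476). Title numbers 1 to 3 alone left 3 of the 42 members with an unadjusted p below 0.05 and a lower level in AVF-CKD, against 5.22% of all genes. Signs turned positive for Oas2 with library totals (6.8e-05), with title numbers 4 to 6 (0.15, with 0.038 for Oas1a and 0.050 for Oas3) and with the replicate block on the title number (0.047), for Tap1 with limma voom (0.030) and for Gbp2 in title numbers 1 to 3 (0.026). Under that replicate block 9 members had an unadjusted p below 0.05 (lower in AVF-CKD, 4.70% of all genes), 0 were called and the median was -0.34. Same-numbered libraries deviated together by correlations of only -0.109 to 0.277, and 1 of 6 numbers correlated best with its own. With 1 library of each group per number, these correlations cannot show whether same-numbered libraries were paired or shared a batch. Leaving out each library gave 0 to 1 calls (1 without AVF-CKD 3, not a member), 7 to 20 members with an unadjusted p below 0.05, and log2 fold changes of -0.12 to 0.14 for Oas2, -0.27 to 0.081 for Oas1a, -0.36 to 0.11 for Oas3, -0.33 to 0.10 for Irf7, -0.18 to 0.024 for Parp14, -0.33 to 0.026 for Psmb8, -0.38 to 0.0035 for Psmb9, -0.27 to 0.069 for Tap1, -0.83 to 0.033 for Gbp2, -0.66 to 0.035 for Gbp5 and -0.41 to 0.017 for Gbp7. In those fits without 1 library, 3.08% to 5.02% of all genes had an unadjusted p below 0.05 with a lower level in AVF-CKD. Without sham 1 and sham 2 the values were 0.019 for Oas2, 0.012 for Irf7, 0.086 for Psmb8, 0.10 for Psmb9 and 0.094 for Tap1. Without sham 2 and sham 4 the gamma-leaning median was 0.062, 3 members had an unadjusted p below 0.05, and the values were 0.15 for Oas2, 0.018 for Oas1a, 0.19 for Oas3, 0.00044 for Dhx58, 0.035 for Trim30a, 0.39 for Gbp5, 0.11 for Irf7, 0.067 for Zbp1, 0.12 for Parp14, 0.35 for Gbp2, 0.18 for Gbp7, 0.062 for Irgm2, 0.043 for Psmb8, 0.041 for Psmb9, 0.19 for Tap1 and 0.30 for Cxcl9. Over all genes, 3.73% had an unadjusted p below 0.05 with a lower level in AVF-CKD when sham 2 and sham 4 were left out. The fits that left libraries out also had fewer samples, and the cause of the changed values was not tested. Of the ligands, Ifng alone passed the filter on low counts.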
